A study of Homo sapiens with 12 samples.

Results

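Protein phosphatase 2A (PP2A) was described at the RNA level through 9 genes that encode its catalytic core and the enzymes and binding proteins that act on it. They are PPP2CA and PPP2CB (catalytic C subunits), PPP2R1A and PPP2R1B (scaffold A subunits), LCMT1 (carboxyl methyltransferase), PPME1 (carboxyl methylesterase, the protein PME-1), PTPA (PP2A activator), and TIPRL and IGBP1 (binders of free C subunit). The genes were chosen by name and function, with earlier results of these data known. All 9 were found among the 23500 genes listed, each as 1 entry, and all 9 were among the 17162 genes tested. RNA was sequenced from 12 libraries in 4 groups of 3, each grown for 12 h. HEK293T, a transformed human embryonic kidney line that depends on methionine, was grown in +Met or in −Met+Hcy. In the latter medium methionine is left out and its precursor homocysteine is supplied. R1, 1 methionine-independent clone derived from HEK293T, was grown in the same media, so that any difference between R1 and HEK293T cells is that of 1 clone. No gene was knocked out and no drug was given in these 4 groups.

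PP2A is a serine/threonine phosphatase in which a C subunit sits on an A scaffold and a B subunit selects the substrates. LCMT1 transfers a methyl group from S-adenosylmethionine to the carboxyl group of the last residue of the C subunit, a leucine, and PPME1 removes it; methylation favors assembly with several of the B subunits. PTPA helps to bring the catalytic site into its active form, whereas IGBP1 (alpha4) and TIPRL bind C subunit outside the holoenzyme. All values below are RNA levels, and neither the protein nor its methylation was measured in these libraries.

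The methylated residue is seen in the genome at the end of the coding sequence. The last 30 bases of the coding sequence, stop codon included, are shown for PPP2CA and for its relatives PPP4C and PPP6C, the catalytic subunits of PP4 and PP6. The final codon, in capitals before the stop codon, encodes a leucine residue. In the C subunit of PP2A this is the residue on which LCMT1 and PPME1 act.
PPP2CA, chr5:134197772-134197801, minus strand, GRCh38: actcgtcgtaccccagactacttcCTGtaa
PPP4C, chr16:30085033-30085062, plus strand, GRCh38: aagaagcccgtggccgactacttcCTGtga
PPP6C, chr9:125149673-125149702, minus strand, GRCh38: cccagaacgacaacgccatatttcCTTtga
In the GENCODE canonical transcripts PPP2CA encodes 309 residues, PPP2CB 309, PPP4C 307 and PPP6C 305, and all 4 end in a leucine codon. These stretches lie in the last coding exon.

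The 250 bases before the start of the canonical transcript are shown for PPP2CA, PPME1 and IGBP1, the members that differed between groups in the tests below. Capitals mark matches, on either strand, to the letters TGACGTCA (cyclic AMP response element), TGACG (part of the former, with which it overlaps), GGGCGG (GC box), CACGTG (E-box), TGATGNAA (C/EBP-ATF response element) or CCAAT (the box named after these letters).
PPP2CA, chr5:134226074-134226323, minus strand, GRCh38: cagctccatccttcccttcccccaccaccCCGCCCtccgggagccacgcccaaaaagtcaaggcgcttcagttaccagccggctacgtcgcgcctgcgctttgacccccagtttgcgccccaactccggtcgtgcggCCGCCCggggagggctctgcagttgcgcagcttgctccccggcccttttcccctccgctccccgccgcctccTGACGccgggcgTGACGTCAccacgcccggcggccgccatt
PPME1, chr11:74171039-74171288, plus strand, GRCh38: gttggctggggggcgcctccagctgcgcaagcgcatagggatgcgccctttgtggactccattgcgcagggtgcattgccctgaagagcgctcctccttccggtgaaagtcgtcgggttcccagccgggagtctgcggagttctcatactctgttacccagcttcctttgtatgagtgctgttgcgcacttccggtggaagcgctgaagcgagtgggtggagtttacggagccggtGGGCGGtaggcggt
IGBP1, chrX:70133197-70133446, plus strand, GRCh38: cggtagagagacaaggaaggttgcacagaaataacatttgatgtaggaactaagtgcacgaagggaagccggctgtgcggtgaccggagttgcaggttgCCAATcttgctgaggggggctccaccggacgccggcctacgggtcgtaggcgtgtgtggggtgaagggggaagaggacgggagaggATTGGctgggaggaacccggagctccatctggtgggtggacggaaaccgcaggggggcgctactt
The PPP2CA window held 1 match to TGACGTCA, 29 to 22 bases before the start, which overlaps 2 of its 3 matches to TGACG, and 2 matches to GGGCGG. The PPME1 window held 1 match to GGGCGG and the IGBP1 window 2 to CCAAT. Among 19961 promoter windows of the same length, 2.41% held TGACGTCA, 25.4% TGACG, 2.18% TGATGNAA, 7.86% CACGTG, 59.0% GGGCGG and 34.3% CCAAT. Of the 9 members, PPP2CA and TIPRL held TGACGTCA, and none held TGATGNAA or CACGTG. These matches describe the letters of the windows and are not binding sites.

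Library totals ran from 12664158 to 18771349 counts. MAT2A, which encodes the S-adenosylmethionine synthetase and is known to rise when methionine is low, lay between 172.85 and 322.35 CPM (counts scaled to a common library total) in the 6 +Met libraries and between 474.61 and 1033.3 in the 6 −Met+Hcy libraries. Of 6 genes expressed in HEK293 cells (PAX2, NEFM, NEFL, INA, VIM and CDH2) none was at 0 in any library. PAX2 was low, however, at 0.206 to 6.06 CPM. The 5 basal keratins of MB468 cells, which the same study handled, had a summed count of 0 in every library. PTPRC, a white blood cell marker, had 0 to 16 counts. One library stood apart. In R1 −Met+Hcy replicate 3 the difference from the other libraries of its group followed the GC content of the transcripts (Spearman's rho over genes, −0.744). Compared in the same way, replicates 1 and 2 of that group gave 0.60 and 0.73, and the other 9 libraries −0.338 to 0.537. Also, its chi-square per gene against the other libraries of its group was 181 and 209, against 6.46 to 79.6 in all other pairs of replicates. The common dispersion, the squared biological variation that edgeR estimates over all libraries, was 0.109 with it and 0.0349 without it, so it entered the spread of every comparison, also of those in HEK293T cells alone.

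Levels are given as CPM scaled by the trimmed mean of M values (TMM), which adjusts for a few abundant RNAs that take up reads. The TMM factors were 0.8278 to 0.8818 in HEK293T +Met and 0.9302 to 1.1182 in the other 9 libraries, and levels on plain column sums are given beside those of the main genes. Fold changes and p-values come from edgeR's quasi-likelihood test on all 12 libraries, adjusted by Benjamini-Hochberg over all 17162 genes, and a gene was called at an adjusted p-value under 0.05. Nothing in the labels says that replicates came from separate cultures, so p-values measure the spread between these libraries, which may be technical. In bulk RNA, a change in the level per cell and a change in the share of cells that express a gene cannot be told apart.

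Per kilobase of canonical transcript and in TMM-scaled CPM, PPP2R1A had the highest mean level of the members in HEK293T +Met (85.1 ± 9.09 CPM per kb, SD, n = 3), followed by TIPRL (63.3 ± 11.2) and PPP2CA (40.8 ± 1.59). IGBP1 (35.6 ± 1.64) and LCMT1 (33.6 ± 1.65) came next, then PTPA (27.2 ± 4.10) and PPP2CB (25.1 ± 1.67), and PPP2R1B (17.5 ± 1.41) and PPME1 (15.3 ± 0.796) were lowest. The ranges of IGBP1 and LCMT1 overlapped, as did those of PTPA and PPP2CB, whereas PPP2R1A lay above TIPRL and TIPRL above PPP2CA in all 3 libraries. PPME1 and PPP2R1B were separated by a small margin (at most 15.961 against at least 15.969). The order depends on the transcript taken for each length. PPP2CA and PPP2CB also have closely related coding sequences, so that the split of reads between them is an estimate of kallisto.

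**Figure D1:**
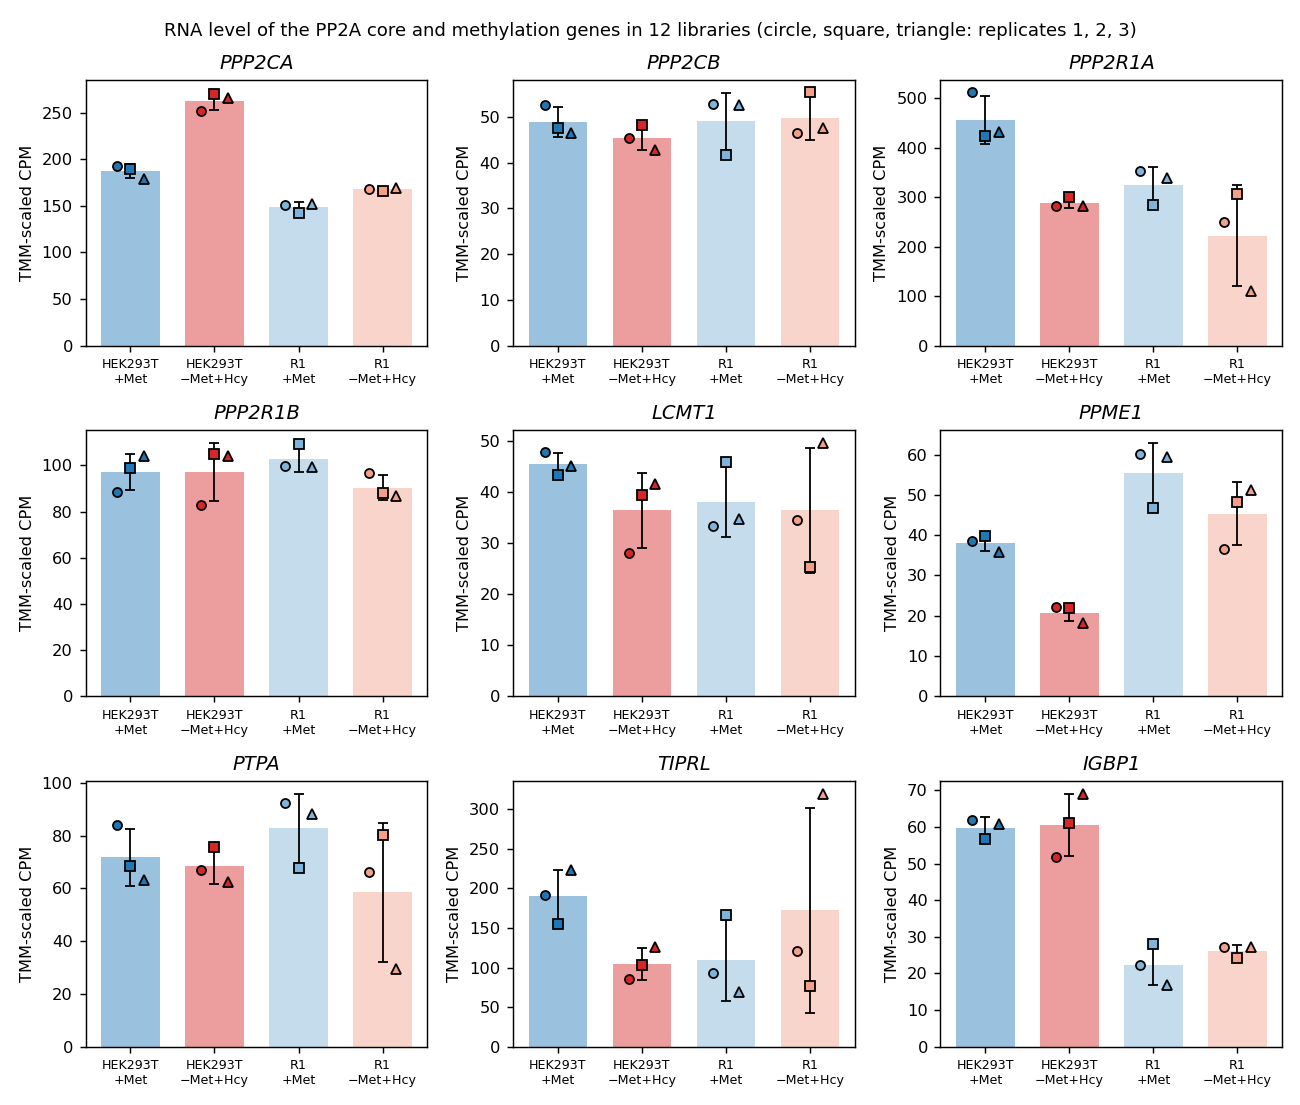
RNA level (TMM-scaled CPM, linear axis from 0) of the 9 members in the 4 groups; bars are means of 3 libraries, error bars are SD, and circles, squares and triangles are replicates 1, 2 and 3. On this scale PPP2CA separated all 4 groups (on column sums only HEK293T −Met+Hcy stood apart), PPME1 was lowest in HEK293T −Met+Hcy at 18.3 to 22.2, IGBP1 lay at 16.9 to 28.2 in R1 and 51.7 to 68.9 in HEK293T cells, and R1 −Met+Hcy replicate 3 (triangle) lay far from its group in PPP2R1A, PTPA and TIPRL.

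The first question was how HEK293T cells, which depend on methionine, changed the RNA of these genes in −Met+Hcy. PPME1, the methylesterase, fell to 0.546 of its +Met level and was the only member called. PPP2CA, the main catalytic subunit gene, had a 1.40-fold higher level with an adjusted p-value just over the threshold, and the other C subunit gene, PPP2CB, had a fold of 0.930. Of all genes tested, 7.03% were called in this comparison (730 higher and 477 lower, 60.5% higher), and 1 of 9 members lies near that share. With column sums in place of TMM the share of higher genes among those called was 89.4%, and the median of all genes shifted to 0.33 on the log2 scale. The median log2 fold change of the 9 members was −0.10, against 0.03 for all genes.

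PPP2CA measured 193, 189 and 179 TMM-scaled CPM in the 3 +Met libraries of HEK293T cells and 251, 270 and 265 in −Met+Hcy. The lowest −Met+Hcy library lay above the highest +Met library. This is a log2 fold change of 0.49 (95% interval 0.18 to 0.79, edgeR adjusted p = 0.0597). On column sums the group means were 159 ± 9.09 and 272 ± 8.63 CPM (SD, n = 3), and with column sums in the fit the log2 fold change was 0.78 (edgeR adjusted p = 0.00596). DESeq2, which the study used, called PPP2CA at a log2 fold change of 0.48 (adjusted p = 2.00e-05), and edgeR called it when R1 −Met+Hcy replicate 3 was left out (adjusted p = 0.00695) or R1 +Met replicate 2 (adjusted p = 0.0497). Over 22 alternatives to the fit PPP2CA was called in 7, with adjusted p-values from 2.00e-05 to 0.212.

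PPP2CB measured 52.6, 47.6 and 46.5 TMM-scaled CPM in +Met and 45.4, 48.3 and 42.8 in −Met+Hcy, and these ranges overlapped. Its log2 fold change of −0.10 (95% interval −0.46 to 0.26) did not pass the test (edgeR adjusted p = 0.764). The log2 ratio of PPP2CA to PPP2CB counts, which does not depend on scaling, was 1.94 ± 0.0595 in +Met (SD, n = 3) and 2.53 ± 0.0900 in −Met+Hcy. It ran from 1.87 to 1.99 in the first and from 2.47 to 2.63 in the second, without overlap.

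Of the scaffold genes, PPP2R1A, the predominant A subunit gene, measured 512, 423 and 432 TMM-scaled CPM in HEK293T +Met and 282, 301 and 282 in −Met+Hcy. All 3 −Met+Hcy libraries were lower. Its log2 fold change was −0.66 (95% interval −1.30 to −0.03), which did not pass the test (edgeR adjusted p = 0.205). Without R1 −Met+Hcy replicate 3 the same fold change, of −0.66, was called (edgeR adjusted p = 0.00470). PPP2R1B, the less abundant A subunit gene, ranged from 88.7 to 104 in +Met and from 82.9 to 105 in −Met+Hcy, with a log2 fold change of 0.00 (95% interval −0.35 to 0.35).

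LCMT1, the methyltransferase, measured 47.9, 43.4 and 45.1 TMM-scaled CPM in HEK293T +Met and 28.1, 39.5 and 41.7 in −Met+Hcy. The groups did not overlap, with −Met+Hcy replicate 1 the farthest from the +Met libraries. Its log2 fold change of −0.32 (95% interval −0.87 to 0.23) did not pass the test (edgeR adjusted p = 0.492). On column sums the means were 38.5 ± 1.03 and 37.7 ± 6.20 CPM (SD, n = 3), which differ by less than their spread.

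PPME1 measured 38.6, 39.7 and 35.9 TMM-scaled CPM in HEK293T +Met and 22.2, 21.9 and 18.3 in −Met+Hcy. Every −Met+Hcy library lay below every +Met library, on 276 to 387 counts against 488 to 511. In the fit its log2 fold change was −0.87 ± 0.189 (SE, 95% interval −1.28 to −0.46, edgeR adjusted p = 0.0183). The direction was the same under all 22 alternatives, whereas the call held in 14 of them. It was lost when any 1 of the 6 HEK293T libraries was left out (log2 fold change −0.92 to −0.78, edgeR adjusted p = 0.0558 to 0.0849), on column sums (−0.58, edgeR adjusted p = 0.0750) and with the replicate number as a block (−0.87, edgeR adjusted p = 0.0524). Without R1 −Met+Hcy replicate 3 the edgeR adjusted p-value was 0.00141. The column-sum means were 32.3 ± 2.58 and 21.7 ± 3.09 CPM (SD, n = 3).

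PTPA, the activator, ranged from 63.2 to 84.0 TMM-scaled CPM in HEK293T +Met and from 62.3 to 75.8 in −Met+Hcy, with a log2 fold change of −0.07 (95% interval −0.72 to 0.58). TIPRL measured 191, 156 and 223 in +Met and 85.6, 104 and 126 in −Met+Hcy. Its groups did not overlap and its log2 fold change was −0.85, but the interval ran from −1.85 to 0.14 (edgeR adjusted p = 0.296). Without R1 −Met+Hcy replicate 3 it was called (−0.85, edgeR adjusted p = 0.0475). IGBP1 ranged from 56.7 to 61.9 in +Met and from 51.7 to 68.9 in −Met+Hcy, and its log2 fold change was 0.02 (95% interval −0.42 to 0.45).

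In HEK293T cells 1 member (PPP2CA) thus lay higher and 4 (PPP2R1A, LCMT1, PPME1 and TIPRL) lay lower in −Met+Hcy without overlap between the groups in TMM-scaled CPM, against 45.4% of all genes that did not overlap in either direction. On column sums 3 lay higher (PPP2CA, PPP2R1B and IGBP1) and 3 lower (PPP2R1A, PPME1 and TIPRL), against 48.4% of all genes, so that PPP2CA, PPP2R1A, PPME1 and TIPRL were apart on both scales. At an unadjusted p-value under 0.05 edgeR gave 3 members (PPP2CA, PPP2R1A and PPME1), and 3838 of the 17162 genes tested. Without R1 −Met+Hcy replicate 3 the called members were 4, namely PPP2CA higher and PPP2R1A, PPME1 and TIPRL lower, while the number of all genes called went from 1207 to 4731.

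**Figure D2:**
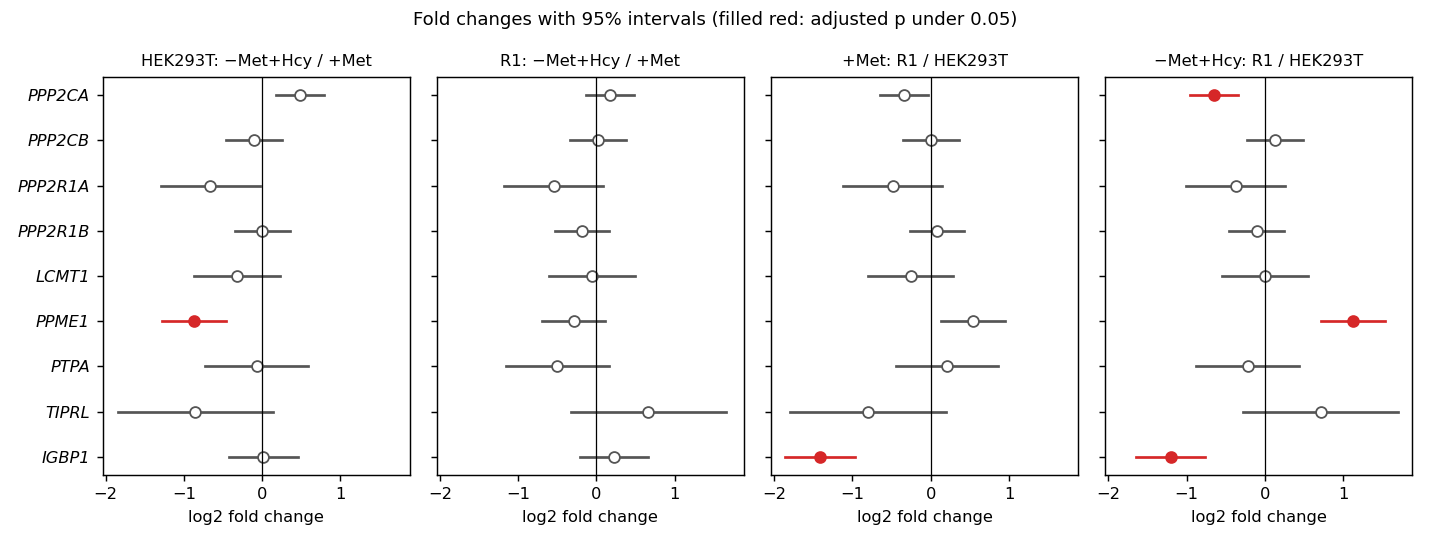
Log2 fold change of each member (horizontal axis, with zero as a vertical line) in the 4 comparisons; points are edgeR estimates and bars are 95% intervals, filled red at an adjusted p-value under 0.05. PPME1 was called in HEK293T cells (−0.87), no member in R1 cells, IGBP1 in both comparisons of R1 with HEK293T cells (−1.41 and −1.21), and PPP2CA (−0.65) and PPME1 (1.13) in −Met+Hcy.

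The same change of medium was then followed in R1 cells, which proliferate without methionine. No member was called, with no member at an unadjusted p-value under 0.05 in edgeR and none called by DESeq2. At that unadjusted threshold edgeR gave 1336 of the 17162 genes tested. Of all genes tested 0.00583% were called, which is MAT2A alone. Median log2 fold changes were −0.06 for the members and −0.02 for all genes, and without R1 −Met+Hcy replicate 3 edgeR called 3 genes and again none of the members.

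PPP2CA measured 151, 142 and 152 TMM-scaled CPM in R1 +Met and 168, 165 and 170 in −Met+Hcy. All 3 −Met+Hcy libraries were higher, and the difference was small, at a log2 fold change of 0.18 (95% interval −0.13 to 0.48, edgeR adjusted p = 0.688). With the trend on GC content removed it was −0.02. PPME1 measured 60.1, 46.8 and 59.3 in +Met and 36.6, 48.3 and 51.1 in −Met+Hcy, which overlapped, with a log2 fold change of −0.29 (95% interval −0.69 to 0.12, edgeR adjusted p = 0.657). PPP2R1B lay at 99.7, 109 and 99.3 in +Met and at 96.7, 87.9 and 86.7 in −Met+Hcy, without overlap and with a log2 fold change of −0.19 (95% interval −0.53 to 0.16). In TMM-scaled CPM, PPP2CA above and PPP2R1B below were the only members whose groups did not overlap in R1 cells, against 10.6% of all genes. On column sums the PPP2CA groups overlapped (R1 +Met spanned 149 to 168 CPM, R1 −Met+Hcy 158 to 187), and PPP2R1B was the only one apart, against 10.1% of all genes.

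The values of 3 other members in R1 −Met+Hcy rested on replicate 3. TIPRL measured 121, 76.8 and 320 TMM-scaled CPM in that group and 92.8, 166 and 68.5 in R1 +Met, and its log2 fold change was 0.66 with all libraries and −0.14 without replicate 3. PPP2R1A measured 251, 307 and 110 against 353, 285 and 338 in +Met, and its log2 fold change went from −0.55 to −0.22. PTPA measured 66.1, 80.4 and 29.4 against 92.4, 67.9 and 88.3 in +Met, and its log2 fold change went from −0.50 to −0.18. Replicate 3 was thus the highest of its group for TIPRL and the lowest for PPP2R1A and PTPA. None of these 3 was called either way (edgeR adjusted p = 0.631 to 0.669 with it).

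In that library TIPRL stood at 3.24 times the mean of replicates 1 and 2, and it has the lowest GC content of the 9 canonical transcripts (36.56%). PTPA, with the highest GC content (59.17%), stood at 0.401, and PPP2R1A, second highest (53.57%), at 0.395. LCMT1 (51.7%) did not follow this order and stood at 1.66, and the other 5 members lay between 0.936 and 1.20. LCMT1 measured 33.4, 45.9 and 34.8 in R1 +Met and 34.5, 25.4 and 49.7 in −Met+Hcy, where the highest value is again replicate 3, and its log2 fold change was −0.06 with this library and −0.35 without it. PPP2CB ranged from 41.8 to 52.8 in +Met and from 46.5 to 55.4 in −Met+Hcy, and IGBP1 from 16.9 to 28.2 and from 24.3 to 27.3, with log2 fold changes of 0.02 and 0.22 that did not pass the test (edgeR adjusted p = 0.965 and 0.711).

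**Figure D3:**
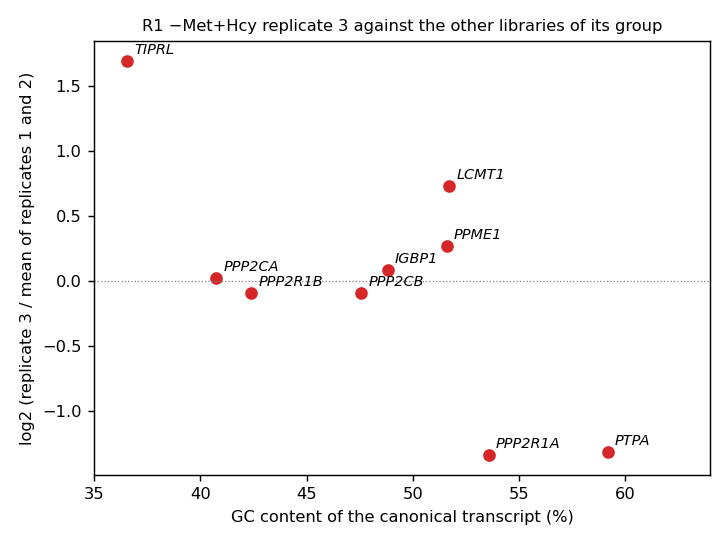
Level of each member in R1 −Met+Hcy replicate 3 over the mean of replicates 1 and 2 (vertical axis, log2 of the ratio of TMM-scaled CPM) against the GC content of its canonical transcript (horizontal axis, percent). TIPRL, at 36.56% GC, was highest at 1.69, and PPP2R1A and PTPA, at 53.57 and 59.17%, were lowest at −1.34 and −1.32.

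Whether the lines responded differently was tested as the difference of their responses (R1 minus HEK293T). No member was called, by edgeR or by DESeq2. At an unadjusted edgeR p-value under 0.05 there were 2 members, PPME1 and TIPRL, and 1659 of the 17162 genes tested. Of all genes 0.0583% were called, all 10 of them lower. For PPME1 the difference was 0.58 on the log2 scale (95% interval 0.01 to 1.16, edgeR adjusted p = 0.512), and without R1 −Met+Hcy replicate 3 it was 0.49 (adjusted p = 0.299). For TIPRL it was 1.51 (95% interval 0.11 to 2.92, edgeR adjusted p = 0.496) and 0.71 without that library. For PPP2CA it was −0.31 (95% interval −0.74 to 0.12) and for LCMT1 0.26 (95% interval −0.51 to 1.03), and both of these intervals include 0. These differences depended on the scaling. On column sums they were 0.23 for PPME1 (edgeR adjusted p = 0.73), 1.12 for TIPRL (0.445), −0.65 for PPP2CA (0.25) and −0.093 for LCMT1 (0.917). The median difference was 0.13 for the members and −0.06 for all genes.

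The next comparison asked whether R1 and HEK293T cells already differed in +Met. IGBP1, the alpha4 protein that binds and protects free C subunit, was lower in R1 cells at 0.376 of the HEK293T level and was the only member called. Of all genes 10.2% were called, 55.9% of them higher in R1 cells, and on column sums 86.3% were higher with the median of all genes at 0.37 on the log2 scale. IGBP1 measured 22.2, 28.2 and 16.9 TMM-scaled CPM in R1 and 61.9, 56.7 and 60.8 in HEK293T +Met. The highest R1 library lay far below the lowest HEK293T library. The log2 fold change was −1.41 ± 0.205 (SE, 95% interval −1.86 to −0.97, edgeR adjusted p = 0.00161), and the column-sum means were 24.2 ± 5.46 and 50.6 ± 0.625 CPM (SD, n = 3). IGBP1 was called in 22 of 22 alternatives, with log2 fold changes from −1.61 to −1.06.

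PPME1 was higher in R1 +Met (46.8 to 60.1 TMM-scaled CPM) than in HEK293T +Met (35.9 to 39.7) in every library. The log2 fold change of 0.54 (95% interval 0.14 to 0.95) did not pass the test (edgeR adjusted p = 0.0884). It was called by DESeq2 (0.53, adjusted p = 0.0339), on column sums (0.90, edgeR adjusted p = 0.0103) and without R1 −Met+Hcy replicate 3 (0.54, edgeR adjusted p = 0.0156). Over the 22 alternatives it was called in 5, with adjusted p-values from 0.0103 to 0.274.

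PPP2CA was lower in R1 (142 to 152) than in HEK293T +Met (179 to 193), with a log2 fold change of −0.33 (95% interval −0.64 to −0.03, edgeR adjusted p = 0.156). This difference depended on the scaling. On column sums the means were 161 ± 10.4 CPM in R1 and 159 ± 9.09 in HEK293T cells (SD, n = 3), and the log2 fold change was 0.02.

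PPP2R1A was lower in R1 (285 to 353) than in HEK293T +Met (423 to 512) in every library, at a log2 fold change of −0.49 (95% interval −1.12 to 0.15, edgeR adjusted p = 0.318), but on column sums the lines overlapped (299 to 387 and 360 to 424 CPM). The other 5 members overlapped between the lines in TMM-scaled CPM. Their log2 fold changes were 0.00 for PPP2CB, 0.08 for PPP2R1B, −0.26 for LCMT1, 0.20 for PTPA and −0.80 for TIPRL. At an unadjusted p-value under 0.05 edgeR gave 3 members (PPP2CA, PPME1 and IGBP1), and 4479 of the 17162 genes tested. DESeq2 called the same 3 members. Without R1 −Met+Hcy replicate 3, 4 members were called (PPP2CA, PPP2R1A and IGBP1 lower, PPME1 higher), while the number of all genes called went from 1745 to 5582. Median log2 fold changes were −0.26 for the members and 0.02 for all genes, and 1 member lay above and 3 below without overlap in TMM-scaled CPM, against 42.9% of all genes. On column sums the balance turned round, with 4 above (PPP2CB, PPP2R1B, PPME1 and PTPA) and 1 below (IGBP1), against 47.2% of all genes. PPME1 and IGBP1 were apart on both scales.

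In −Met+Hcy, the medium in which the proliferation of the lines differs, R1 and HEK293T cells differed in 3 members. PPME1 was higher in R1 cells, at 2.18 times the HEK293T level, and PPP2CA and IGBP1 were lower, at 0.639 and 0.434. Of all genes 14% were called (1235 higher and 1160 lower). Median log2 fold changes were −0.11 for the members and −0.01 for all genes. This comparison and that of the media in HEK293T cells share the 3 HEK293T −Met+Hcy libraries, so that a low value there enters both.

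PPME1 measured 36.6, 48.3 and 51.1 TMM-scaled CPM in R1 −Met+Hcy and 22.2, 21.9 and 18.3 in HEK293T −Met+Hcy. The lowest R1 library was far above the highest HEK293T library. For PPME1 the log2 fold change was 1.13 ± 0.190 (SE, 95% interval 0.71 to 1.54, edgeR adjusted p = 0.00249), and it was called in 21 of 22 alternatives, the exception being edgeR on the 6 libraries of the comparison alone (adjusted p = 0.0524). The column-sum means were 47.4 ± 6.68 and 21.7 ± 3.09 CPM (SD, n = 3).

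PPP2CA measured 168, 165 and 170 in R1 −Met+Hcy and 251, 270 and 265 in HEK293T −Met+Hcy. The groups were far apart for their spread. The log2 fold change was −0.65 ± 0.141 (SE, 95% interval −0.95 to −0.34, edgeR adjusted p = 0.0107), with column-sum means of 176 ± 16.2 and 272 ± 8.63 CPM (SD, n = 3). It was called in 20 of 22 alternatives, and not with edgeR on the 6 libraries alone (adjusted p = 0.106) or without HEK293T −Met+Hcy replicate 2 (adjusted p = 0.0573).

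IGBP1 measured 27.1, 24.3 and 27.3 in R1 −Met+Hcy and 51.7, 61.0 and 68.9 in HEK293T −Met+Hcy, again without overlap. The log2 fold change was −1.21 ± 0.204 (SE, 95% interval −1.65 to −0.76, edgeR adjusted p = 0.00257), and it was called in 22 of 22 alternatives. IGBP1 was therefore lower in R1 cells in both media, and within each line its medium response did not pass the test. The remaining members were not called in this comparison, with log2 fold changes from −0.37 (PPP2R1A) to 0.72 (TIPRL), the latter −0.09 without R1 −Met+Hcy replicate 3. Across groups, 1 member lay above and 2 below without overlap, against 32.5% of all genes, and the same 3 were apart on column sums. The 3 called members were also the 3 with an unadjusted edgeR p-value under 0.05 and the 3 called by DESeq2. At that unadjusted threshold edgeR gave 5070 of the 17162 genes tested.

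Side by side in TMM-scaled CPM, the group means of PPP2CA and PPME1 ran in opposite orders. PPP2CA was highest in HEK293T −Met+Hcy (262 ± 9.50 TMM-scaled CPM, SD, n = 3), then HEK293T +Met (187 ± 7.30), R1 −Met+Hcy (168 ± 2.09) and R1 +Met (148 ± 5.70), and no neighbouring groups overlapped. On column sums the 3 lower groups overlapped, with R1 −Met+Hcy at 176 ± 16.2, R1 +Met at 161 ± 10.4 and HEK293T +Met at 159 ± 9.09 CPM, and the order no longer mirrored that of PPME1. PPME1 was highest in R1 +Met (55.4 ± 7.47), then R1 −Met+Hcy (45.3 ± 7.73), HEK293T +Met (38.1 ± 1.98) and HEK293T −Met+Hcy (20.8 ± 2.15). Here the ranges of R1 +Met and R1 −Met+Hcy overlapped, as did those of R1 −Met+Hcy and HEK293T +Met, and HEK293T −Met+Hcy lay below all others.

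The log2 ratio of LCMT1 to PPME1 counts sets the methyltransferase RNA against the methylesterase RNA in each library. It measured 0.26 ± 0.111 in HEK293T +Met, 0.79 ± 0.426 in HEK293T −Met+Hcy, −0.55 ± 0.453 in R1 +Met and −0.35 ± 0.499 in R1 −Met+Hcy (SD, n = 3 each). It was above 0 in all 6 HEK293T libraries, from 0.13 to 1.19, and below 0 in all 6 R1 libraries, from −0.93 to −0.03. The place of 0 depends on transcript length (1352 bases for LCMT1 and 2487 for PPME1), so 0 does not mark equal levels. Per kilobase the plain ratio ran from 1.022 to 1.805 in R1 +Met and from 0.967 to 1.786 in R1 −Met+Hcy. Within HEK293T cells the lowest −Met+Hcy library (0.34) lay barely above the highest +Met library (0.33), and within R1 cells the media overlapped. Per kilobase, LCMT1 stood at 2.20 times PPME1 in HEK293T +Met, 3.28 times in HEK293T −Met+Hcy, 1.30 times in R1 +Met and 1.496 times in R1 −Met+Hcy. The ratio of PPP2CA to PPP2CB per kilobase was 1.63, 2.45, 1.30 and 1.44 in the same order, so that the alpha gene exceeded the beta gene in every group. The log2 ratio of PPP2R1A to PPP2R1B counts was 2.23 ± 0.262, 1.57 ± 0.170, 1.66 ± 0.242 and 1.17 ± 0.749 (SD, n = 3 each), and the last group ranged from 0.35, in replicate 3, to 1.80. These ratios are descriptions of RNA and were not tested.

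**Figure D4:**
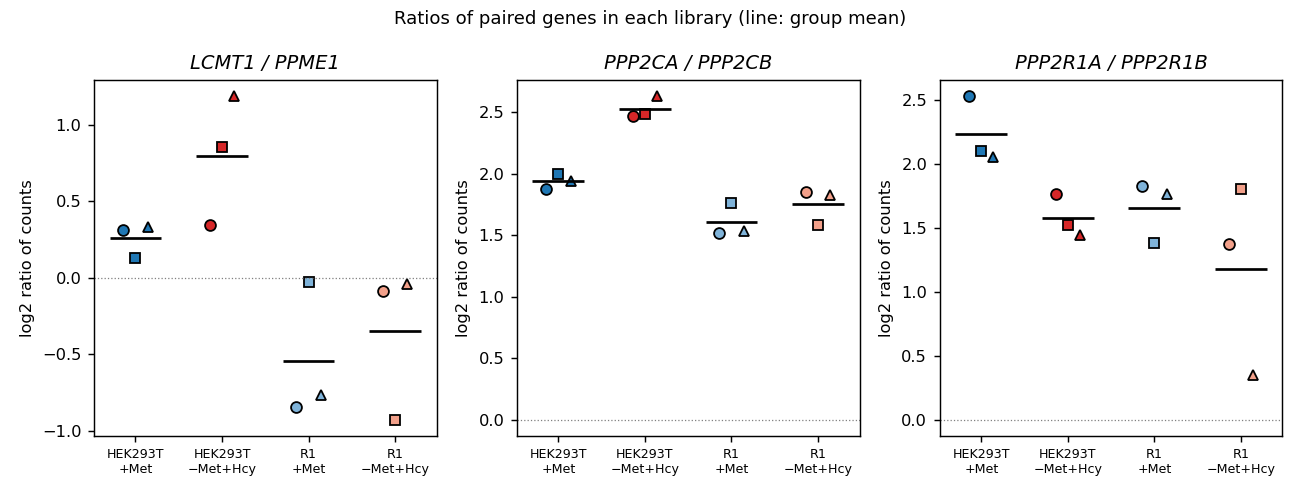
Log2 ratio of the counts of paired genes in each library (vertical axis) for the 4 groups; circles, squares and triangles are replicates 1, 2 and 3 and lines are group means. LCMT1 to PPME1 was above 0 in all HEK293T libraries and below 0 in all R1 libraries, and PPP2CA to PPP2CB was highest in HEK293T −Met+Hcy (2.47 to 2.63). Counts are not scaled by transcript length, so 0 does not mark equal levels of 2 genes.

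The genes with the pattern most like a member were found by Pearson's r of TMM log2 CPM over the 12 libraries, among genes with a mean log2 CPM over 2. For PPP2CA they were CEBPG (0.991), RIOX2 (0.981) and ZBTB2 (0.978). CEBPG, a C/EBP family transcription factor, was also among the nearest 3 in the 11 libraries without R1 −Met+Hcy replicate 3 (0.991). There SLC3A2 (0.9945) and GEMIN4 (0.9905) took the places of RIOX2 and ZBTB2. For PPME1 they were UBE3C (0.986), ACTR2 (0.985) and DNAJA1 (0.976), and other genes took their places over 11 libraries (PFKP, LIMK1 and DPYSL5, 0.989 to 0.991). For LCMT1 they were NUP107 (0.955), APOO (0.950) and IDH3A (0.948), of which NUP107 and APOO also ranked among the nearest 3 over 11 libraries. The libraries fall into 4 groups, so these values mostly follow the group means, and they are the highest of many genes.

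Other genes of the pathway were taken from lists by function. Of 15 regulatory B subunit genes, which direct PP2A to its substrates, none was called in the medium comparison of HEK293T or R1 cells, and their median log2 fold changes were 0.03 and 0.17. At an unadjusted edgeR p-value under 0.05 there were 2 in HEK293T and 0 in R1 cells, against 3838 and 1336 of the 17162 genes tested. DESeq2 called PPP2R5A higher and PPP2R5D lower in HEK293T cells and none in R1 cells. Without R1 −Met+Hcy replicate 3 edgeR called PPP2R5A higher and PPP2R5D and PPP2R5E lower in HEK293T cells, where 4731 of all genes were called. Between the lines, PPP2R2C was higher in R1 +Met at a log2 fold change of 2.64 (edgeR adjusted p = 0.0357), but at very low levels of 0.526 ± 0.366 TMM-scaled CPM in HEK293T and 3.31 ± 0.508 in R1 cells (SD, n = 3). PPP2R5A was lower in R1 −Met+Hcy (−0.75, edgeR adjusted p = 0.0106), at 36.8 ± 5.66 against 62.0 ± 1.94. In +Met DESeq2 also called PPP2R5A and PPP2R3C lower in R1 cells. Without R1 −Met+Hcy replicate 3 edgeR called PPP2R2C, PPP2R5B and STRN3 higher and PPP2R5A, PPP2R5E and PPP2R3C lower in +Met. Of all genes, 5582 were called in that setting. With the GC trend removed STRN4 took the place of PPP2R5E, with 3129 of all genes called. In −Met+Hcy these alternatives also called STRN3 or PPP2R5B higher and STRN4 lower.

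Of 9 genes of PP2A inhibitors and their kinase (SET, ANP32A, CIP2A, ENSA, ARPP19, PABIR1, PABIR2, BOD1 and MASTL), none was called in either medium comparison by edgeR or DESeq2. At an unadjusted edgeR p-value under 0.05 there was 1 in HEK293T and 1 in R1 cells, against 3838 and 1336 of all genes. In HEK293T cells edgeR called ANP32A and CIP2A lower without R1 −Met+Hcy replicate 3, and CIP2A lower with the GC trend removed. In these settings 4731 and 2543 of all genes were called. Between the lines 1 was called, and without R1 −Met+Hcy replicate 3 PABIR1 was also called lower in R1 +Met. BOD1, an inhibitor that acts on PP2A at the kinetochore, was lower in R1 cells in +Met (63.7 ± 17.8 against 131 ± 23.4 TMM-scaled CPM, log2 fold change −1.04, edgeR adjusted p = 0.0295) and in −Met+Hcy (77.6 ± 18.9 against 191 ± 44.04, −1.30, edgeR adjusted p = 0.00799; SD, n = 3).

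Of 10 genes of PP4 and PP6, whose catalytic subunits end in the same leucine, none was called in any of the 5 comparisons. At an unadjusted edgeR p-value under 0.05 there were 0 to 2, against 1336 to 5070 of all 17162 genes. The smallest adjusted p-value in HEK293T cells was that of PPP4R3A (0.82, edgeR adjusted p = 0.0643), which DESeq2 called higher. DESeq2 also called PPP4R4 and PPP6R3 higher in R1 than in HEK293T cells in −Met+Hcy. Without R1 −Met+Hcy replicate 3 edgeR called 5 of them in HEK293T cells, with PPP4R2 and PPP4R3A higher and PPP4R4, PPP6C and PPP6R1 lower. Of all 17069 genes tested in that setting, 4731 were called. Between the lines the same setting called PPP4R4 higher and PPP6C lower in R1 +Met, and PPP4R3A lower in R1 −Met+Hcy.

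MID1 and MID2 encode ubiquitin ligases that bind alpha4 and, for MID1, promote the turnover of the C subunit. Both were higher in HEK293T −Met+Hcy. MID1 went from 68.0 ± 11.8 to 114 ± 11.8 TMM-scaled CPM (log2 fold change 0.75, 95% interval 0.31 to 1.18, edgeR adjusted p = 0.0437) and MID2 from 26.5 ± 1.29 to 46.2 ± 0.737 (0.80, 95% interval 0.38 to 1.23, edgeR adjusted p = 0.0300; SD, n = 3). Both calls were lost when any 1 of the 6 HEK293T libraries was left out (edgeR adjusted p = 0.0599 to 0.188 for MID1 and 0.0808 to 0.111 for MID2) and with the replicate number as a block (0.0933 and 0.0555). The call of MID1 was also lost with no filter on low counts (0.0515) and without R1 +Met replicate 1 (0.0693) or 3 (0.0610). DESeq2 called both. In R1 cells MID1 and MID2 had log2 fold changes of 0.35 and 0.63 that did not pass the test (edgeR adjusted p = 0.638 and 0.622).

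**Figure D5:**
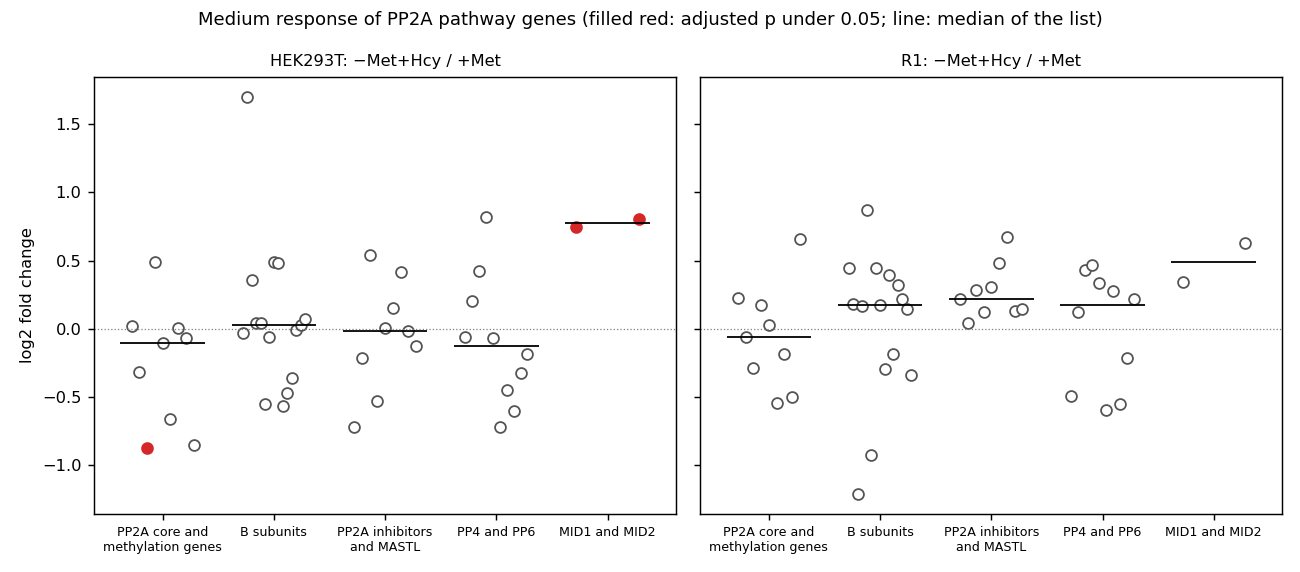
Log2 fold change of −Met+Hcy against +Met (vertical axis) for the 9 members and 4 lists of other genes in HEK293T and R1 cells; each circle is a gene, filled red at an adjusted p-value under 0.05, and lines are medians. In HEK293T cells PPME1 lay at −0.87 and MID1 and MID2 at 0.75 and 0.80, and no gene was filled in R1 cells.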

How the data were processed

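The authors extracted total RNA from 4 groups of 3 libraries (HEK293T and R1 cells, +Met and −Met+Hcy, 12 h) and quantified reads against GRCh38 with kallisto 0.48.0. The deposited values are estimated counts added per Ensembl gene and made whole numbers by the authors; the annotation release is not given in the sources used here. Libraries of MB468 and R8 cells were not used here. For R1 libraries the label on the cell line reads HEK293T, and they were assigned by their titles. No batch is given.

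Genes with a summed count of at least 10 over 12 libraries were tested with edgeR 4.0.16 in R 4.3.3 (quasi-likelihood, TMM, a mean for each of the 4 groups, 8 residual degrees of freedom), and p-values were adjusted by Benjamini-Hochberg. The procedure was tested on simulated data, which did not carry the GC trend of R1 −Met+Hcy replicate 3. CPM is the count scaled to a common library total, and log2 CPM used a prior count of 2. Alternatives were DESeq2 1.42.0, the 6 libraries of a comparison alone, RLE scaling, no filter on low counts, filterByExpr, a robust spread, a block on the replicate number, an added threshold of 1 on the absolute log2 fold change, removal of a loess trend on GC content (span 0.3, fitted on genes over a mean log2 CPM of 2, for 15857 genes with a canonical transcript), and each library left out. Column sums without TMM, and GC removal with R1 −Met+Hcy replicate 3 left out, were chosen after the data were seen. Coordinates, lengths and GC content come from GENCODE v44 canonical transcripts, and sequences from GRCh38.

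The members and gene lists were chosen with earlier results of these data known. The genes named are all members, MAT2A, in each list every gene called in a medium comparison (at most 5), and the 3 genes most like PPP2CA, PPME1 and LCMT1; other genes of the lists were named after their values were seen. The lowest count of any member was 236 (IGBP1 in R1 +Met replicate 3), which sets the depth behind the values.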

Additional observations from a re-analysis of the deposited data

How the results depend on the processing

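The calls of IGBP1 in R1 against HEK293T cells held under every alternative in both media, and no member's value that edgeR called on the TMM-scaled counts of all 12 libraries changed its direction. PPP2CA between the lines in +Met, called by DESeq2 (−0.34, adjusted p = 0.0041), changed sign on column sums (0.0189). Where a cause is not named below, it was not tested. The number of members called was 1 in the HEK293T medium comparison. It became 2 with DESeq2, 4 with edgeR on the 6 libraries alone, 2 with filterByExpr, 3 with the GC trend removed (PPP2R1A, PPME1 and TIPRL lower), 4 with that and R1 −Met+Hcy replicate 3 left out, and 0 with the added threshold on the fold change, which PPME1 does not reach. On column sums the number stayed at 1, but the called member was PPP2CA in place of PPME1. Leaving out 1 library gave 0 to 4: 0 without any HEK293T library, 2 without R1 +Met replicate 2 and 4 without R1 −Met+Hcy replicate 3. In R1 against HEK293T cells in +Met the number went from 1 to 3 with DESeq2, 2 on the 6 libraries, 2 on column sums, 2 with the GC trend removed, 4 with that and replicate 3 left out, and 1 to 4 on leaving out a library. In −Met+Hcy it went from 3 to 1 on the 6 libraries, and to 2 to 3 on leaving out a library. With the added threshold on the fold change it was 2 in −Met+Hcy, since PPP2CA does not reach that threshold. In R1 cells and for the difference of responses it was 0 under all alternatives run.

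The numbers of all genes called also moved. For HEK293T cells, 1207 became 2237 with DESeq2, 5562 on 6 libraries, 2007 on column sums, 2543 with the GC trend removed, 5009 with that and R1 −Met+Hcy replicate 3 left out, and 794 with the fold threshold. For the lines in +Met, 1745 became 2884, 4865, 2608, 3129, 5712 and 1315 in the same order. For the lines in −Met+Hcy, 2395 became 498 on 6 libraries and 4072 with the GC trend removed. For R1 cells, 1 became 40 with DESeq2 (82.5% higher), 0 on 6 libraries and 3 with the GC trend removed. For the difference, 10 became 245 with DESeq2 (36.7% higher), 32 on column sums, 6 without a filter and 103 with the GC trend removed (29.1% higher). Leaving out 1 library gave 289 to 4731 genes in HEK293T cells, 0 to 3 in R1 cells, 626 to 5582 and 1079 to 5168 between the lines in +Met and −Met+Hcy, and 0 to 287 for the difference, and each highest number was reached without R1 −Met+Hcy replicate 3.

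Replicate numbers gave no clear pairing of the libraries. The correlation of same-numbered libraries' deviations from their group means ran from −0.718 to 0.595, and 5 of 12 libraries correlated best with their own number. Among libraries numbered 1 all these correlations lay above 0 (0.003 to 0.595), and their rho with GC content was positive in every group (0.328 to 0.6). Whether the numbers mark a shared batch was not tested. With the replicate block, 0 members were called in HEK293T cells (PPME1, edgeR adjusted p = 0.0524), and 0, 1, 3 and 0 in the other comparisons. Of all genes, 618 were called in HEK293T cells, 1122 between the lines in +Met and 0 for the difference. The block gave −0.0011 for PPP2R1B in HEK293T cells and −0.0012 for LCMT1 between the lines in −Met+Hcy.

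Log2 fold changes that this test did not call changed sign as follows. PPP2CA between the lines in +Met (−0.33, also called without R1 −Met+Hcy replicate 3) and TIPRL in R1 cells (0.66) were not near 0. DESeq2 gave −0.0051 for PPP2R1B (HEK293T medium) and −0.0042 for PPP2CB (lines in +Met), and RLE gave −0.0052 and −0.0036. Column sums gave 0.19 for PPP2CB and 0.23 for PTPA in HEK293T cells and −0.014 for PPP2CB in R1 cells. Between the lines they gave 0.02 for PPP2CA (0.0189) and 0.093 for LCMT1 in +Met and −3e-04 for LCMT1 in −Met+Hcy, and in the difference −0.21 for PPP2CB, −0.18 for PPP2R1A, −0.093 for LCMT1 and −0.12 for IGBP1. Removing the GC trend gave −0.050 for PPP2R1B, 7e-04 for PTPA and −0.061 for IGBP1 in HEK293T cells, −0.024 for PPP2CA and 0.14 for LCMT1 in R1 cells, and −0.013 for PPP2CB between the lines in +Met. With R1 −Met+Hcy replicate 3 also left out it gave −0.052 for PPP2R1B and −0.062 for IGBP1 (−0.0615) in HEK293T cells, −0.13 for TIPRL in R1 cells, −0.011 for PPP2CB in +Met, 0.078 for PPP2R1B and −0.32 for LCMT1 in −Met+Hcy, and −0.0075 for LCMT1 in the difference.

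Leaving out each library in turn, log2 fold changes in HEK293T cells ran from −0.060 to 0.10 for PPP2R1B, −0.16 to 0.056 for PTPA and −0.070 to 0.12 for IGBP1. In R1 cells they ran from −0.079 to 0.081 for PPP2CB, −0.35 to 0.14 for LCMT1 and −0.14 to 1.10 for TIPRL. Between the lines they ran from −0.053 to 0.11 for PPP2CB in +Met, and in −Met+Hcy from −0.28 to 0.21 for LCMT1, −0.52 to 0.099 for PTPA and −0.089 to 1.07 for TIPRL. In the difference they ran from −0.19 to 0.44 for PPP2R1A and −0.028 to 0.46 for LCMT1. The values of TIPRL, PPP2R1A and PTPA that involve R1 −Met+Hcy are limited by its replicate 3.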
